A study of Mus musculus with 6 samples.

Results

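Bone morphogenetic protein (BMP) ligands, receptors and antagonists were followed in mouse embryo tissue that the labels call retinal pigment epithelium (RPE). The 10 genes were chosen by name, by a rule that uses no measured value, although earlier results of these data were known. They are the ligand genes Bmp2, Bmp4, Bmp5 and Bmp7, the receptor genes Bmpr1a, Bmpr1b and Bmpr2, and the antagonist genes Nog, Chrd and Grem1, out of 18193 genes that the array names with a probe set of their own. The array holds 23 probe sets that name 1 of these genes alone, and the brightest of them, by its mean over the 6 arrays, stands for the gene. A mean log2 level of at least 5 was asked for before testing, which 9 of the 10 genes and 16 of the 23 probe sets met.

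The series compares 3 pools from albino embryos with 3 pools from pigmented control embryos at embryonic day 13.5. Each pool held the RPE of 3 to 4 littermates, dissected from an eyecup after lens, cornea and neural retina had been taken off, although the sample descriptions speak of the whole region of the eye. The labels name neither the strains nor the gene mutated in the albino embryos, so the groups are known here only as albino and pigmented. Each pool was measured once on an array that reads the 3' ends of transcripts, and values are log2 RMA levels.

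BMPs are secreted dimers that bind a pair of type I receptors (Bmpr1a, Bmpr1b and others) and a pair of type II receptors (Bmpr2 and others), after which SMAD proteins carry the signal to the nucleus. Noggin, chordin and gremlin bind the ligands outside the cell and keep them from the receptors. In the developing eye, Bmp7 and Bmp4 are known for early eye and lens formation, Bmp4 is present in the dorsal optic cup, and BMP signals from the surface ectoderm help to give the outer layer of the optic cup its RPE fate in chick.

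The pools did not hold RPE alone. Array means were 10.5 to 10.7 for periocular mesenchyme markers and 10.2 to 10.9 for erythroid markers, with overlapping genotypes in both. Among RPE genes, the pigment gene Tyr read 10.75 to 11.24 on all 6 arrays, and Rpe65, a retinoid enzyme gene, read 3.07 to 3.49. Of 12 RPE markers above the filter, 11 were lower in albino pools, with a mean difference of -0.16, with array means of 9.67 to 9.86 in albino and 9.82 to 10.06 in pigmented pools. All 12 skeletal muscle markers were higher in albino pools, with array means of 8.41 to 9.10 in albino and 6.98 to 7.85 in pigmented pools. Of 10 neural retina markers, 9 were lower in albino pools, with array means of 6.93 to 7.38 against 7.20 to 7.70. Albino replicate 3 stood apart in lens markers, with a mean of 5.21 against 7.48 to 7.74 on the other 5 arrays. The arrays numbered 1 of both genotypes stood apart from the other 4 on the first principal component (68.9% of the variance). Y-linked genes, which follow the share of male embryos in a pool, averaged 7.47, 7.06 and 7.99 in albino pools but 7.39, 2.32 and 5.98 in pigmented pools. The part of these marker differences in the results below was not tested, other than by a fit with the Y-linked mean as a covariate. A lower value in such bulk pools cannot be told apart as fewer cells of a type or less RNA per cell.

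No member passed the test between genotypes after adjustment. In limma with Benjamini-Hochberg adjustment, 0 of the 9 tested members and 0 of 12098 tested genes (0%) had an adjusted p under 0.05. At an unadjusted p under 0.05 stood 1 of the 9 members, Bmp4, beside 4.79% of all tested genes. The 2 genotypes did not overlap at 1 of 9 members, again Bmp4, beside 11.3% of all tested genes. Both shares rest on a single gene. Of the 9 members, 6 had the higher mean in albino pools (66.7%), against 64.8% of all tested genes. Their median difference, albino minus pigmented, was 0.24 on the log2 scale, beside 0.043 over all tested genes. It was -0.017 without albino replicate 1, where the median over all tested genes was -0.015. Without pigmented replicate 1 these medians were 0.13 and 0.10, and without both replicate 1 arrays 0.05 and 0.04. The median of the members thus moved with the replicate 1 arrays.

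**Figure D1:**
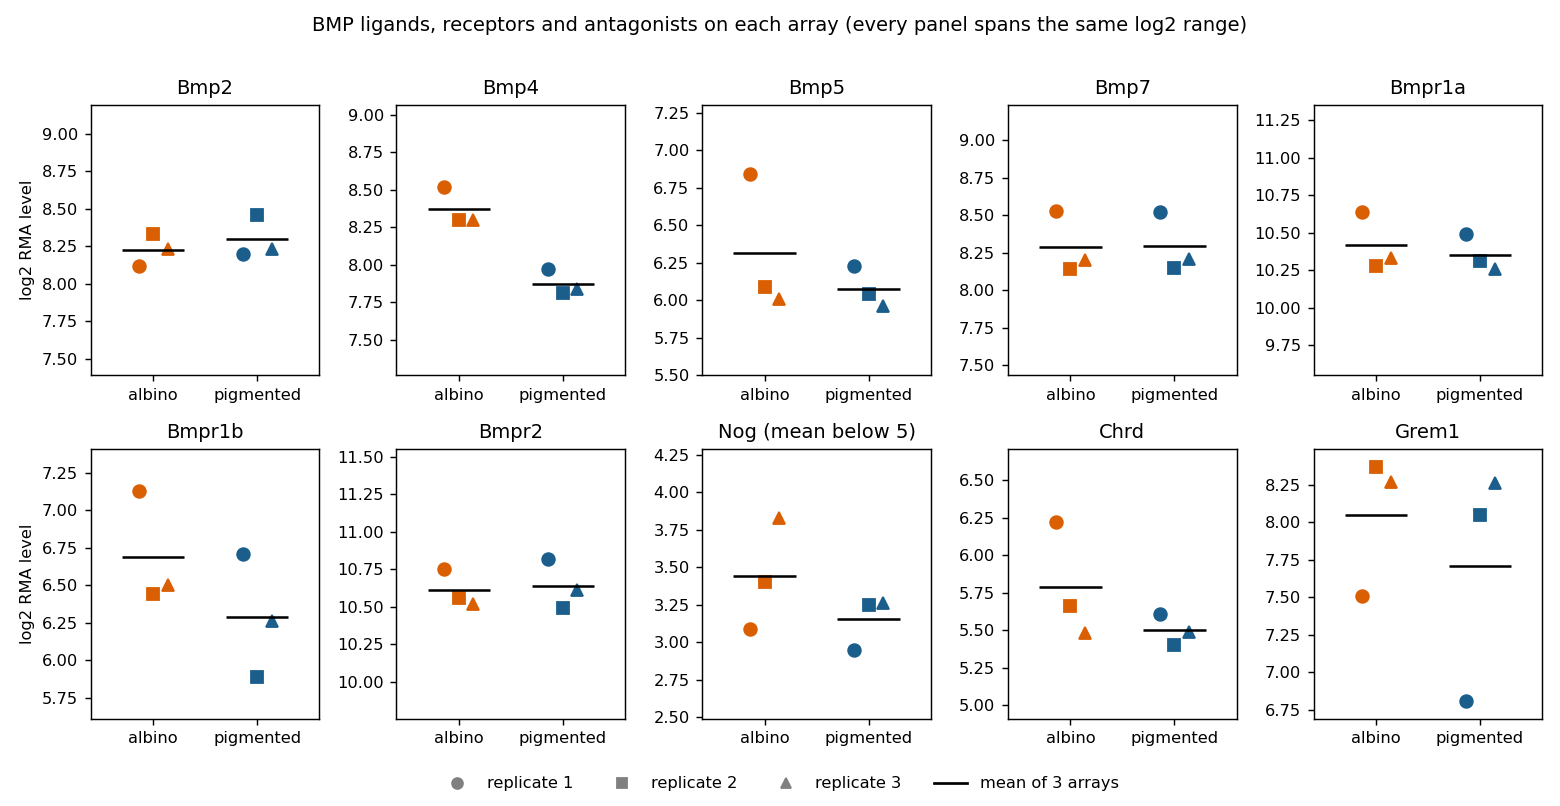
Log2 RMA level of each member gene on each of the 6 arrays, with 1 panel a gene, 3 albino arrays (orange), 3 pigmented arrays (blue), a marker shape for each replicate number and a black line at the mean of 3 arrays. Bmp4 is the panel in which every albino array (8.30 to 8.52) lies above every pigmented array (7.81 to 7.97), and replicate 1 stands apart for Bmpr1b and Grem1.

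Bmp4 encodes a ligand of the BMP2/4 group that is needed from early embryogenesis on. Its probe set, the only one on the array for this gene, read 8.52, 8.30 and 8.30 in albino replicates 1 to 3 and 7.97, 7.81 and 7.84 in pigmented replicates 1 to 3. All albino arrays were above all pigmented arrays, with a gap of 0.33 between the groups. The means were 8.37 ± 0.13 and 7.87 ± 0.085 (SD, n = 3 each), a difference of 0.50 (SE 0.11, 95% confidence interval 0.25 to 0.75) or 1.41-fold (1.19 to 1.68). The limma adjusted p was 0.595. An exact two-sided permutation test of this gene alone gave p = 0.1, the smallest value that 3 arrays against 3 allow. Every gene without overlap gives this value, and such genes were 11.3% of all tested genes. The permutation test thus adds nothing to the separation already seen.

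The Bmp4 difference was alike in all 3 pairs of arrays with the same number, at 0.55, 0.49 and 0.46. The separation of the groups does not depend on how the arrays are paired, and the pairing of replicates 2 and 3 is not borne out by the data. With the Y-linked mean as a covariate the difference was 0.44. Skeletal muscle markers differed by 1.80, 2.12 and 0.56 in the same pairs. Lens markers differed by -0.097, 0.26 and -2.52 in these pairs, and neural retina markers by -0.27, -0.29 and -0.33. Macrophage markers, with 7 of 9 higher in albino pools, had array means of 7.18 to 7.24 against 7.05 to 7.06, and RPE markers differed by -0.21, -0.24 and -0.047. The part of these markers in the Bmp4 difference was not tested.

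The letters before the annotated start of Bmp4 are shown because it is the member with separate genotypes, beside those of Bmp6, a ligand gene described below. Bmp6 was picked after its letters had been seen. Gdf5, also a ligand gene without overlap, was not read for motifs. Both come from RefSeq (build GRCm38.p6) and give the 250 bases that end just before the start. Bmp4 lies on the minus strand at chr14:46390670-46390919 and Bmp6 on the plus strand at chr13:38345466-38345715. Capitals mark the E-box CACGTG, a sequence read by basic helix-loop-helix factors that include the pigment cell regulator MITF, and the GC box GGGCGG on either strand.
Bmp4: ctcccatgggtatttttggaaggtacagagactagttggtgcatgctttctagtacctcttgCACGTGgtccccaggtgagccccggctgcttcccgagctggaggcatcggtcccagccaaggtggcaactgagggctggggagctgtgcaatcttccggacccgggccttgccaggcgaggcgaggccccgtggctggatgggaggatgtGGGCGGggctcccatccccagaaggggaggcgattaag
Bmp6: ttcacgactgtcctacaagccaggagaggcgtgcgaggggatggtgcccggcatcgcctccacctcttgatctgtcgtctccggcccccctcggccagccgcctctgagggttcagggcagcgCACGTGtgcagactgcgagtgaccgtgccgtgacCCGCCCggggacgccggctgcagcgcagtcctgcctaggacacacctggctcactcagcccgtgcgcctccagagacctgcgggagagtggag

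Each of these windows held 1 E-box, which begins 188 bases before the start in Bmp4 and 127 bases before it in Bmp6, and 1 GC box. The marked letters do not overlap. Over all 32851 promoter windows of this length, 6.02% held CACGTG and 32.7% held GGGCGG on either strand. Of the 10 members, 7 had a promoter in the table, in 9 windows, and the E-box was in that of Bmp4 only. The TATA box TATAAA was in neither printed window and in 12.4% of all windows. These are matches of letters in 1 window a start, and no binding was measured.

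Bmp2, the close relative of Bmp4, did not share its separation. Its 1 probe set read 8.12, 8.33 and 8.23 in albino pools and 8.20, 8.46 and 8.23 in pigmented pools. The ranges overlapped, and the difference was -0.07 (SE 0.11, 95% confidence interval -0.34 to 0.20, limma adjusted p = 0.999). That interval ends below the lower bound found for Bmp4, 0.25, but the difference between the 2 genes was not tested.

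Bmp7, a ligand of the BMP5/6/7 group known from mutant mice with small or missing eyes, had nearly equal means. Its brightest probe set read 8.53, 8.14 and 8.20 in albino pools and 8.52, 8.15 and 8.21 in pigmented pools, so that arrays of the same number were within 0.01 of each other. The difference was -0.0033 (SE 0.15, interval -0.37 to 0.36). The other 2 Bmp7 probe sets gave 0.063 and 0.25, and in the second of these the genotypes did not overlap, with a gap of 0.07 and a limma adjusted p of 0.999. In that probe set pigmented replicate 1 was low, at 5.72 against 6.16 and 6.15 in pigmented replicates 2 and 3. The 3 estimates for Bmp7 were not all of the same sign, and all 3 intervals crossed 0.

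Bmp5, of the same group, was set apart by 1 array. Its probe set with the highest mean read 6.84, 6.09 and 6.01 in albino pools and 6.23, 6.04 and 5.96 in pigmented pools. Albino replicate 1 was high and the other 5 arrays lay within 5.96 to 6.23. The difference of 0.24 (SE 0.23, limma adjusted p = 0.999) was -0.027 without albino replicate 1 and 0.05 without both replicate 1 arrays. Its 2 other probe sets had means of 4.03 and 3.11 and were not tested.

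The type I receptor gene Bmpr1a had the most probe sets, 6, of which 5 were tested. The brightest read 10.64, 10.28 and 10.33 in albino pools and 10.49, 10.31 and 10.26 in pigmented pools, a difference of 0.063 (SE 0.13, interval -0.25 to 0.38). The groups overlapped there. All 5 tested probe sets had the higher mean in albino pools, with differences of 0.063 to 0.22 and 0 of 5 at an unadjusted limma p under 0.05. The genotypes did not overlap at 2 of them, with gaps of 0.09 and 0.02. Of all tested genes, each by its brightest probe set, 64.8% were higher in albino pools and 11.3% had no overlap. The Bmpr1a probe sets read the same transcripts on the same arrays and are not independent of each other. The sixth had a mean of 4.56.

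Bmpr1b, the second type I receptor gene, had the largest difference among the receptors, within a wide spread. The array values were 7.13, 6.44 and 6.50 in albino pools and 6.71, 5.89 and 6.26 in pigmented pools. The groups overlapped because pigmented replicate 1 lay above albino replicates 2 and 3, while each albino array was above the pigmented array of its number, by 0.42, 0.55 and 0.24. The difference was 0.40 (SE 0.26, interval -0.23 to 1.04, limma adjusted p = 0.999). With the replicate number as a block, which takes out what arrays of 1 number share, the SE was 0.078 and the limma adjusted p 0.192. This is the smallest adjusted p of any probe set in the block fit. Bmp4 shares it, although the unadjusted limma p with that block was 0.00029 for Bmp4 and 0.0035 for Bmpr1b. That block brought the members at an unadjusted p under 0.05 from 1 to 2 of 9, Bmp4 and Bmpr1b, beside 16.9% of all tested genes. The size moved with single arrays and with the Y-linked covariate. It was 0.18 without albino replicate 1, 0.21 without pigmented replicate 2, 0.62 without pigmented replicate 1, and the covariate fit gave 0.073. Without both replicate 1 arrays the difference was 0.395, near that of the main fit. The other 2 Bmpr1b probe sets had means of 3.50 and 2.70. The muscle markers differed in the same order over the pairs (1.80, 2.12 and 0.56), and their part in the Bmpr1b difference was not tested. Bmpr2, with a genotype difference of -0.03, had that order too (-0.07, 0.07 and -0.09). That order rests on the pairing of replicates 2 and 3, which the data do not bear out.

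Bmpr2, the type II receptor gene, showed no separation. It read 10.75, 10.56 and 10.52 in albino pools and 10.82, 10.49 and 10.61 in pigmented pools. Genotypes differed by -0.03 (SE 0.12, interval -0.32 to 0.26), and its second tested probe set gave -0.017. Both intervals leave room for changes of up to about 0.3 in either direction on the log2 scale.

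**Figure D2:**
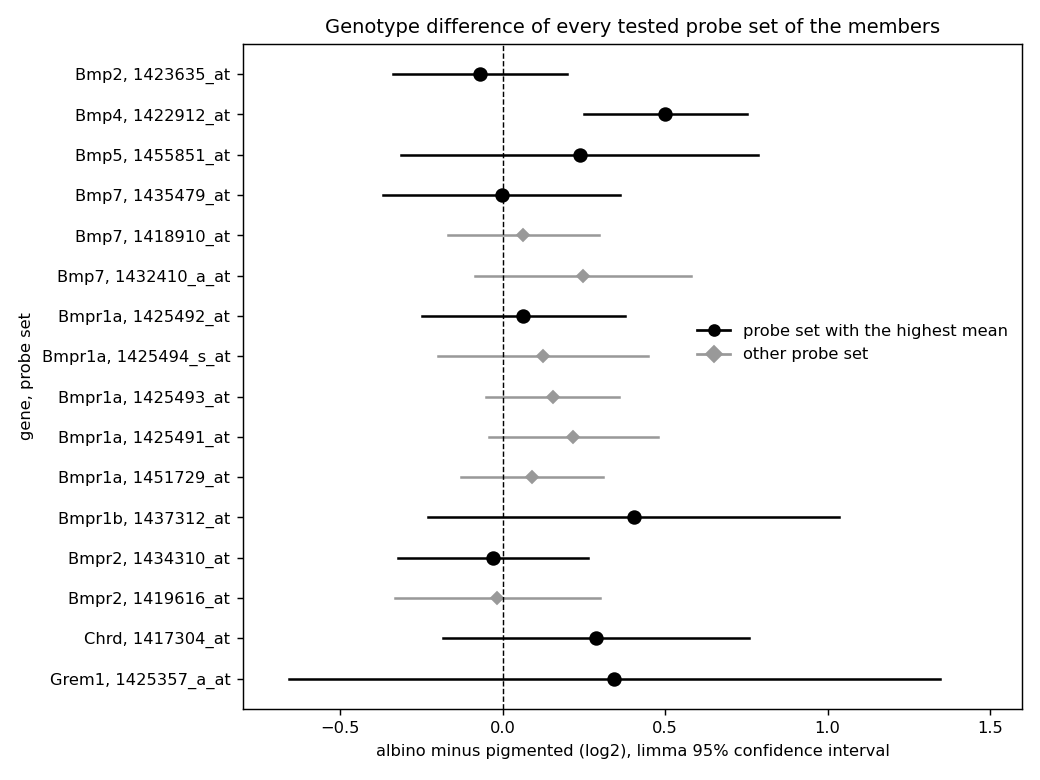
Albino minus pigmented difference (log2) of the 16 tested probe sets of the members, with limma 95% confidence intervals. Black circles are the probe sets with the highest mean of a gene and grey diamonds its other tested probe sets. The interval of Bmp4 (0.25 to 0.75) is the 1 interval that does not cross 0, and that of Grem1 (-0.66 to 1.35) is the widest.

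Among the antagonists, Grem1, the gene of gremlin 1, varied most over the arrays, with an SD of 0.61 over all 6. It read 7.51, 8.37 and 8.27 in albino pools and 6.81, 8.05 and 8.26 in pigmented pools. Replicate 1 was the lowest array of its genotype in both groups, by 0.81 below the mean of the other 2 in albino and 1.35 below it in pigmented pools. The genotype difference of 0.34 (SE 0.42, limma adjusted p = 0.999) was smaller than that spread and was -0.11 without pigmented replicate 1. It was 0.165 without both replicate 1 arrays. Pairs of the same number differed by 0.70, 0.32 and 0.01.

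Chrd, the gene of chordin, read 6.22, 5.66 and 5.48 in albino pools and 5.61, 5.40 and 5.49 in pigmented pools. Albino replicate 1 was the high array and the groups overlapped. The difference was 0.29 (SE 0.20, interval -0.18 to 0.76, limma adjusted p = 0.999). It was 0.07 without albino replicate 1 and 0.125 without both replicate 1 arrays. Nog, the gene of noggin, was the member below the filter, at 3.09, 3.40 and 3.83 in albino pools and 2.95, 3.25 and 3.26 in pigmented pools. Its mean of 3.30 lies below the array medians of 5.19 to 5.22, and it was not tested.

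Replicate 1 stood further from replicates 2 and 3 than albino stood from pigmented pools for 8 of the 9 tested members, all but Bmp4, taking the mean over both genotypes. The same held for 75.0% of all tested genes. In both genotypes, replicate 1 lay above replicates 2 and 3 for 7 of the 9 tested members and below both for the other 2, Bmp2 and Grem1. Over all tested genes, replicate 1 lay above both in both genotypes in 60.2% and below both in 11.0%. For Bmpr1b the shift of replicate 1 against the mean of the other 2 was 0.66 in albino and 0.64 in pigmented pools, against a genotype difference of 0.40. For Bmp4 it was 0.22 and 0.15, against 0.50. What the arrays numbered 1 share is not given in the labels.

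Other genes of the pathway were read from 4 lists of 51 genes, of which 47 are named by the array annotation used and 36 passed the filter. After adjustment 0 of the 36 passed in limma, and 5 stood at an unadjusted p under 0.05. All 5 were higher in albino pools, beside 3.47% of all tested genes that were higher at that p. The genotypes did not overlap, with albino above, at 6 of the 36 (7.97% of all tested genes), and with albino below at 0 of the 36 (3.38% of all tested genes). The median difference over the 36 was 0.035, near the 0.043 of all tested genes.

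**Figure D3:**
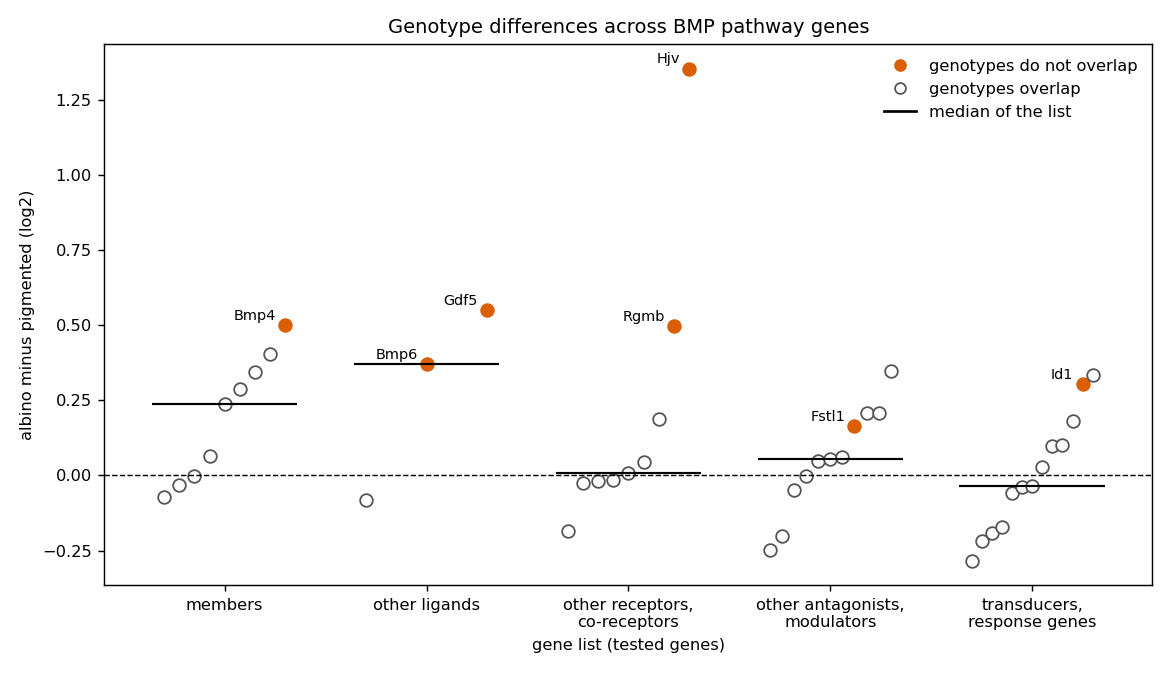
Albino minus pigmented difference (log2) of the tested genes in 5 lists, with each point a gene, filled where the 2 genotypes do not overlap, and a black line at the median of the list. Filled points lie above 0 in every list, with Bmp4 among the members and Hjv, at 1.35, highest of all.

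Other ligands had 3 tested genes of the 7 named. Bmp6, which belongs with Bmp5 and Bmp7, read 5.95, 5.98 and 5.81 in albino pools and 5.52, 5.58 and 5.53 in pigmented pools, without overlap. Its difference was 0.37 (SE 0.090, limma adjusted p = 0.728). Gdf5, a ligand gene known from joint formation, read 6.38, 6.04 and 5.82 against 5.75, 5.34 and 5.50, a difference of 0.55 (SE 0.18, limma adjusted p = 0.946). Its groups were parted by a gap of 0.07 only. Both genes were close to the filter, and how this bears on the size of their differences was not tested. The third, Gdf2, gave -0.08.

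Among co-receptors, Rgmb, whose membrane protein RGMb (DRAGON) binds BMPs and enhances their signal, read 7.26, 7.28 and 7.28 in albino pools and 6.81, 6.73 and 6.79 in pigmented pools. The SD was 0.012 in albino and 0.042 in pigmented pools, and the gap between the groups was 0.45. Its difference was 0.50 (SE 0.082, limma adjusted p = 0.500), and pairs of the same number gave 0.45, 0.55 and 0.49. Its 3 other tested probe sets gave 0.16 to 0.30, with no overlap at 1 of them, and its 2 probe sets with means under 5 gave 0.02 and -0.027.

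Hjv encodes hemojuvelin, a co-receptor of the same family that is known from skeletal muscle and liver. It read 6.89, 7.15 and 6.44 in albino pools and 5.39, 5.23 and 5.80 in pigmented pools, a difference of 1.35 (SE 0.22, limma adjusted p = 0.500). Pairs of the same number differed by 1.50, 1.92 and 0.64, in the order of the 12 muscle markers (1.80, 2.12 and 0.56). Gdf5 (0.63, 0.70 and 0.32) and Bmpr1b had that order too. So did genes with small genotype differences, such as Bmpr2 (-0.07, 0.07 and -0.09) and Smad1 (0.12, 0.15 and 0.02). The share of all tested genes with that order was not counted. The order rests on the pairing of replicates 2 and 3, which the data do not bear out. The second Hjv probe set gave 1.18. The part of the muscle markers in the Hjv difference was not tested.

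**Figure D4:**
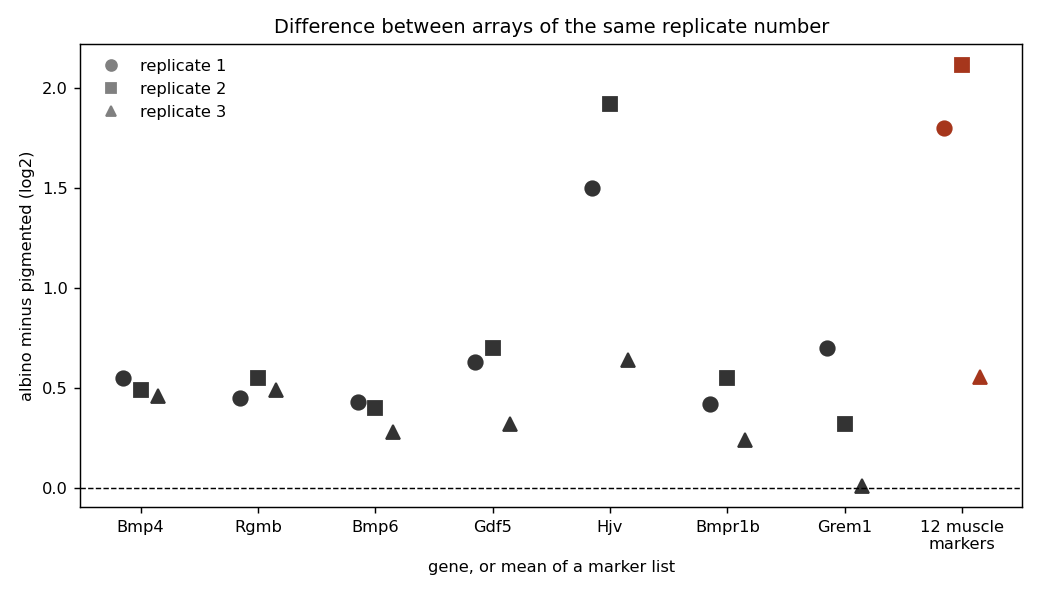
Albino minus pigmented difference (log2) between the 2 arrays of each replicate number, for 7 pathway genes and for the mean of 12 skeletal muscle markers (red), with a marker shape for each number. Bmp4 (0.46 to 0.55) and Rgmb (0.45 to 0.55) lie close together over the 3 pairs, while Hjv and the muscle markers are lowest in pair 3, at 0.64 and 0.56. Every gene shown but Rgmb is lowest in pair 3. The data do not bear out the pairing of replicates 2 and 3.

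The other receptor genes, with Acvr1 (-0.013), Acvr2a (0.19) and Acvr2b (0.043) among them, had 0 of 7 at an unadjusted limma p under 0.05. Antagonists and other extracellular modulators had 7 of 11 tested genes higher, where 64.8% of all tested genes were higher. At an unadjusted limma p under 0.05 stood 0 of the 11. Among them only Fstl1 had no overlap, with a difference of 0.16 and a gap of 0.02. Fst, the gene of follistatin, read 9.71, 9.74 and 9.85 in albino pools and 10.15, 10.11 and 9.78 in pigmented pools, a difference of -0.25 (SE 0.13). Pigmented replicate 3 fell within the albino range, and the second Fst probe set gave 0.073.

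Signal transducers and response genes had 6 of 13 tested genes higher and 7 lower, where 64.8% of all tested genes were higher. Id1, an early target gene of BMP signalling, read 9.80, 9.55 and 9.62 in albino pools and 9.39, 9.33 and 9.34 in pigmented pools, a difference of 0.30 (SE 0.099, limma adjusted p = 0.958). It was the 1 gene of these 13 without overlap, beside 11.3% of all tested genes, and was named here after its values were seen. Tbx3 (0.33), Id3 (0.18) and Smad6 (0.10) also had the higher mean in albino pools, with overlapping groups. Other response genes went the other way in their means. Msx1 differed by -0.28 (SE 0.17), Msx2 by -0.22 (SE 0.12), Tbx2 by -0.19 (SE 0.11) and Id2 by -0.17 (SE 0.11), with overlapping groups in all 4.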

How the data were processed

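RNA was measured on 6 arrays, 3 albino and 3 pigmented pools, from 100 ng of total RNA labelled with a 3' kit, per the labels' protocols. The deposited log2 values were made by the authors with Affymetrix Expression Console 1.1 and RMA, per the submitters' processing notes. RMA includes quantile normalization, so differences are relative to the other probe sets. Whether a single RMA run covered all arrays is not stated.

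Of 45101 probe sets, 34945 name 1 gene in the platform annotation. Control probe sets and those with a mean under 5 were left out, leaving 23591. Albino minus pigmented was tested with limma 3.58.1 in R 4.3.3 (lmFit, eBayes, two-sided, checked on simulated data), adjusted over the 23591 with a threshold of 0.05. The simulated differences were larger than that of any member, and the noise was independent between arrays. The check thus does not cover differences of the size seen here. With 3 arrays a genotype, their number limits the precision.

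Deviations from the genotype means correlated at 0.863, 0.687 and 0.448 between arrays numbered 1, 2 and 3, all above 0.1, so a fit with the number as a block is given. Across numbers the correlation was 0.693 for albino 2 with pigmented 3 and 0.546 for albino 3 with pigmented 2. The data thus set replicate 1 apart and do not bear out the matching of 2 with 2 and 3 with 3, on which differences within pairs rest. The main fit has no block. The members and lists were chosen with earlier results of these data known. All members are named and, of other pathway genes, the 4 higher and 4 lower with the smallest unadjusted p, with a few others chosen after their values were seen. Likeness to Bmp4 and Grem1 was ranked by the mean absolute difference between deviations from each gene's mean. Alternatives were the replicate block, scaling, filters, probe set choice, variance models, a Y-linked covariate and arrays left out.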

Additional observations from a re-analysis of the deposited data

How the results depend on the processing

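Under all 18 alternatives 0 members and 0 other pathway genes passed after adjustment, and Bmp4 kept its direction (0.43 to 0.55, adjusted p 0.0659 to 1). Its lowest adjusted p came with array weights. With the replicate block the Bmp4 adjusted p was 0.192, the smallest of any probe set in that fit and shared by Bmpr1b. The block changed no call after adjustment. Bmpr1b (0.073 to 0.62), Chrd (0.07 to 0.44) and Nog (0.092 to 0.46) also kept their direction, the lowest values coming with the Y-linked covariate, without albino replicate 1 and without albino replicate 3. Members at an unadjusted limma p under 0.05 numbered 1 to 4. The 4 (Bmp4, Bmpr1b, Chrd and Grem1) came with replicate 1 against the other arrays as a block. In that fit 1695 of all 12098 tested genes were higher in albino pools at that p, and 745 were lower. The median difference of the tested members ranged from -0.017 to 0.23 with single arrays left out, and was 0.05 without both replicate 1 arrays. The sign turned for Bmp2 with the Y-linked covariate (0.055) and without pigmented replicate 2 (0.012). It turned for Bmp5 without albino replicate 1 (-0.027), and for Bmpr1a without that array (-0.048) and after median centring (-0.01). Bmp7 turned with probe sets averaged (0.10), without albino replicate 2 (0.072) or 3 (0.042), and without pigmented replicate 1 (0.11). Bmpr2 turned without albino replicate 3 (0.015) and pigmented replicate 1 (0.06), and Grem1 without pigmented replicate 1 (-0.11). With single arrays left out, the other ends of the ranges were -0.12 for Bmp2, 0.39 for Bmp5, -0.12 for Bmp7, 0.13 for Bmpr1a, -0.11 for Bmpr2 and 0.62 for Grem1. The cause of these turns was not tested. Without both replicate 1 arrays every member kept the sign of the main fit, with Bmp5 at 0.05, Bmpr1a at 0.02 and Grem1 at 0.165. Of all genes at an unadjusted p under 0.05, 72.5% were higher in albino pools, against 35.6% after median centring and 52.1% after cyclic loess. Chrd was not tested at a minimum mean of 6, and Nog, being untested, has a value only under centring, filters and left-out arrays.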

Other observations

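Genes with profiles most like that of Bmp4 over the 6 arrays were Hs3st1, a heparan sulfate sulfotransferase gene, Scara5, a scavenger receptor gene, and Egln3, a prolyl hydroxylase gene. Their deviations differed from those of Bmp4 by a mean of 0.034, 0.039 and 0.040 on the log2 scale. Hs3st1 read 7.52, 7.38 and 7.41 in albino pools and 7.01, 6.92 and 6.93 in pigmented pools. Genes most like Grem1 were Dnajc21 (0.055), Srp72 (0.070) and Fbxo32 (0.082), each lowest on the replicate 1 array of both genotypes. Among 12098 genes and 6 arrays close matches arise readily, so these names are a description.

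Chrdl1, the gene of the chordin-like antagonist 1, lay below the filter and was not tested. It read 4.85, 4.94 and 5.02 in albino pools and 4.20, 4.57 and 4.62 in pigmented pools, without overlap. The ligand gene Bmp10, also below the filter and not tested, parted the other way. It read 4.06, 4.08 and 4.10 in albino pools and 4.40, 4.46 and 4.32 in pigmented pools. Crim1, a BMP-binding membrane protein gene, was low on both replicate 1 arrays like Grem1, at 7.13 and 6.71 against 7.96 to 8.23 on the other 4.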
